A study of Mus musculus with 6 samples.

Results

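T and NK cell genes were described in the inguinal fat (iWAT, a white depot under the skin) of mice on a high-fat diet. The 10 genes were listed by name: Cd3d, Cd3e, Cd3g, Trac, Il7r, Cd2, Nkg7, Cd4, Cd8a and Gzma. Of these, 9 had a row among the 15176 genes of the deposited table. Cd3d had none and was not analysed here. Whole tissue RNA was sequenced from 4 Steap4f/f libraries (replicates 1, 2, 5 and 6), whose mice carry the floxed Steap4 gene, and from 2 Steap4AKO libraries (replicates 2 and 3), whose mice lack Steap4 in adipocytes. All mice had the high-fat diet, and the labels give no Cre driver, age or sex. They do not tie libraries to separate mice, and p-values therefore cover the spread among these libraries, which may be technical.

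T cells recognise peptides through a receptor whose alpha and beta chains bind antigen and whose CD3 chains carry the signal into the cell. The coreceptor CD4 binds MHC class II and marks helper and regulatory cells, whereas CD8 binds MHC class I and marks cytotoxic cells. NK cells lack this receptor and kill with perforin and granzymes, as cytotoxic T cells do. Fat holds resident T cells, and an inguinal pad also encloses a lymph node. In obese mice, CD8 T cells are known to accumulate in fat and regulatory T cells to decline there. Several of the 10 genes are not confined to T and NK cells, since innate lymphoid cells carry Il7r, B cells Cd2 and subsets of dendritic cells Cd4 or Cd8a.

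None of the 9 genes passed the test between genotypes (limma, adjusted p under 0.05), while 2 of them, Il7r and Trac, had an unadjusted p under 0.05 and a higher level in Steap4AKO. Over all 15006 genes tested, 6 (0.04%) passed as higher and 65 (0.433%) as lower, and 8.45% were higher and 9.66% lower at an unadjusted p under 0.05. All 9 genes had a higher mean log2 value in Steap4AKO, as had 52.2% of all genes tested. Their median log2 difference, Steap4AKO minus Steap4f/f on log2(value + 1), was 1.25, beside 0.02 over all genes tested, and it was 0.70 without Steap4AKO replicate 2. Both Steap4AKO libraries lay above every Steap4f/f library for 4 genes, Trac, Cd2, Il7r and Nkg7, and 14.1% of all genes tested lay so. Steap4AKO replicate 2 was the highest of the 6 libraries for 8 of the 9 genes, and for 27% of all genes tested. These shares over all genes are also the background for the counts of each list below.

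Steap4AKO replicate 2 stood apart from the other libraries in genes of several cell types, such as the macrophage and mesothelial markers described below. For several genes whose fold moved by over 1.5 times without it, the difference without it is also given. Genes without such a value may also depend on that library. Skeletal muscle markers (16 of 16 with a row, Myh7 listed at 0 in at least 1 library) had a sum of 152500 to 829200 in Steap4f/f, of 5473 in Steap4AKO replicate 2 and of 20340 in replicate 3. Steap4 itself did not check the labels, with 17018, 9417, 8310 and 8851 in the Steap4f/f libraries, against 8313 and 8014 in the Steap4AKO libraries (limma, adjusted p = 0.544). The spacing of low values put 1 read at 0.716 in Steap4AKO replicate 2 and at 0.994 to 1.183 in the other libraries. In Steap4AKO replicate 2, 181 low values lay within 0.1 of a step of an odd multiple of 0.716 and 165 of an even multiple, whereas a step of double that size would give even multiples. By this estimate Steap4AKO replicate 2 had about 23100000 reads, against 15900000 to 19400000 in the others. A value of a T or NK cell gene rested on about 1 to 762 reads, with a median of 20.5, so that counting error is large at the low end.

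The promoters of Il7r and Nkg7 are shown because both genes were above every Steap4f/f library in both Steap4AKO libraries. They come from RefSeq (GRCm38.p6), run from 250 bases before to 50 bases after the RefSeq start, and are written 5′ to 3′ on the minus strand for Il7r (chr15:9529827-9530126) and on the plus strand for Nkg7 (chr7:43436888-43437187). Capitals mark the ETS motif (CGGAAG or AGGAAG) and the RUNX motif (TGTGGT), searched on both strands. ETS and RUNX proteins are transcription factor families with members that act in T and NK cells.
Il7r: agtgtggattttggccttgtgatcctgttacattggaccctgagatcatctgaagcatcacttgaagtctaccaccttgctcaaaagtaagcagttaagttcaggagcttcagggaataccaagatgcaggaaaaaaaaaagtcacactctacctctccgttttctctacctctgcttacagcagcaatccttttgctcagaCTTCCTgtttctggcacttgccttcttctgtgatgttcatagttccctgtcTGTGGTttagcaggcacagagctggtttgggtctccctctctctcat
Nkg7: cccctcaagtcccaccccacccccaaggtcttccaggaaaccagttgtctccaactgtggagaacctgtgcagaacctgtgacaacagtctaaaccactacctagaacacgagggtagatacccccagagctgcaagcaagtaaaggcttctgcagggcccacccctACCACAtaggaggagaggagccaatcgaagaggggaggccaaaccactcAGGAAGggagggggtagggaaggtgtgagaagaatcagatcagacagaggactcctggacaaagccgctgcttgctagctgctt

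In Il7r the ETS match began 48 bases before the start, and the RUNX match began at base 4 after it. In Nkg7 the ETS match began 34 bases and the RUNX match 83 bases before the start. RefSeq promoters matched 7 of the 10 listed genes, Cd3d included, and were not found for Trac, Cd2 and Cd4. Of these 7, 4 held the ETS motif, 3 the RUNX motif, 1 the GATA motif (AGATAA), 1 the TCF/LEF motif (CTTTGA) and 7 the E box (CANNTG, the same on both strands). Over all 32851 promoters of the same length the shares were 46.5% for ETS, 16.8% for RUNX, 11.2% for GATA, 16.0% for TCF/LEF and 72.3% for the E box. These matches describe letters in the window and are not binding sites.

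**Figure D1:**
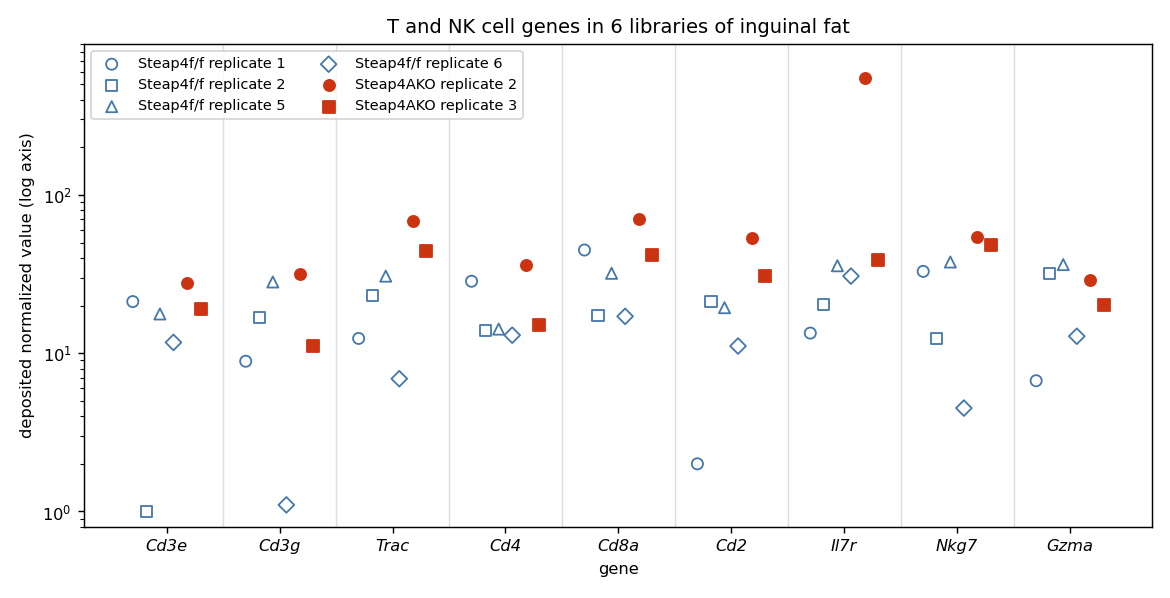
Deposited normalized value of each of 9 T and NK cell genes (log axis) in 4 Steap4f/f libraries (open blue symbols) and 2 Steap4AKO libraries (filled red symbols). Steap4AKO replicate 2 is the highest library for 8 of the 9 genes, and Il7r reaches 545.6 there.

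The receptor chains were near the limit of measurement. Trac (chromosome 14, 54220521 to 54224206), the constant region of the alpha chain, stood at 12.4, 23.1, 30.7 and 6.9 in replicates 1, 2, 5 and 6 of Steap4f/f, and at 68.4 and 44.2 in replicates 2 and 3 of Steap4AKO. Values of other genes follow the same order. The groups did not overlap, with 18.3 ± 10.6 (SD, n = 4) against 56.3 ± 17.1 (SD, n = 2), a 3.08-fold higher mean. The log2 difference was 1.73 (SE 0.68, 95% interval 0.16 to 3.30) which was not past the threshold (limma, adjusted p = 0.241). In bulk tissue, fewer cells of a type and less RNA per cell cannot be told apart.

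Cd3e and Cd3g encode the epsilon and gamma chains of CD3, and their groups overlapped. Cd3e (chromosome 9, 44998740 to 45009627) had 21.2, 1.0, 17.7 and 11.7 in the Steap4f/f libraries, against 27.9 and 19.0 in the Steap4AKO libraries. Its value of 1.0 in Steap4f/f replicate 2 is that of about 1 read. The log2 difference was 1.25 (SE 1.06, limma, adjusted p = 0.558), and it was 0.47 without Steap4f/f replicate 2. The annotated antisense gene Gm48719 overlaps Cd3e, so that its reads could not be told apart from those of Cd3e without strand, and Gm48720 overlaps it on the same strand.

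Cd3g (chromosome 9, 44969572 to 44980431) had 8.9, 16.9, 28.2 and 1.1 in the Steap4f/f libraries, against 31.7 and 11.1 in the Steap4AKO libraries. Steap4AKO replicate 3 lay among the Steap4f/f libraries, below 2 of them. The log2 difference was 0.97 (SE 1.13, limma, adjusted p = 0.681), and it was 0.20 without Steap4f/f replicate 6, where about 1 read was behind the value, and 0.25 without Steap4AKO replicate 2. Cd3e and Cd3g were thus low in different Steap4f/f libraries, although their proteins pair in 1 complex.

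Of the wider list of receptor chains and coreceptors, 8 of 14 genes had a row, and all 8 had a higher mean in Steap4AKO (median log2 difference 1.01). None passed the test in limma, and 3 were higher at an unadjusted p under 0.05, as were 8.45% of all genes tested. Cd247, the zeta chain, had 66.3, 52.6, 120.5 and 66.7 in the Steap4f/f libraries, against 142.1 and 145.7 in the Steap4AKO libraries, so that both Steap4AKO libraries were higher than all Steap4f/f libraries (log2 difference 0.97, SE 0.38, limma, adjusted p = 0.238). Trbc1, a constant region of the beta chain, had 5.0, 3.7, 7.1 and 1.6 against 32.2 and 16.2 (limma, adjusted p = 0.234). Trbc1 and Trbc2 had a Steap4f/f mean under 10 and so met the minimum mean of 10 only through Steap4AKO, which had to be higher for them, and the counts of this list include both. Both genes are near-identical, so that the division of reads between them is uncertain. The delta chain Trdc and the gamma chains were not analysed here.

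The coreceptors differed in how the libraries fell. Cd8a (chromosome 6, 71373427 to 71379173) had 44.9, 17.3, 32.0 and 17.1 in the Steap4f/f libraries, against 70.2 and 41.5 in the Steap4AKO libraries. Steap4f/f replicate 1 lay above Steap4AKO replicate 3, so that the groups overlapped. Its mean was 2.01-fold higher, 27.8 ± 13.3 (SD, n = 4) against 55.8 ± 20.3 (SD, n = 2), with a log2 difference of 1.05 (SE 0.56, 95% interval -0.26 to 2.35, limma, adjusted p = 0.366).

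Cd4 (chromosome 6, 124864692 to 124888221) had 28.5, 13.9, 14.2 and 13.0 in the Steap4f/f libraries, against 36.0 and 15.0 in the Steap4AKO libraries. Steap4f/f replicate 1 and Steap4AKO replicate 2 stood above the other 4 libraries, which lay close together. The log2 difference was 0.48 (SE 0.64, limma, adjusted p = 0.720), and it was -0.13 without Steap4AKO replicate 2. Per length of annotated exon, the ratio of the Cd8a level to the Cd4 level was 1.75, 1.38, 2.49 and 1.46 in the Steap4f/f libraries, against 2.16 and 3.06 in the Steap4AKO libraries, so that these ratios overlapped too.

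Cd2 (chromosome 3, 101275899 to 101287939) encodes an adhesion receptor that binds CD48 on other leukocytes. It had 2.0, 21.3, 19.4 and 11.1 in the Steap4f/f libraries, against 53.6 and 30.9 in the Steap4AKO libraries, with no overlap. The mean rested on 13.5 ± 8.83 (SD, n = 4) and 42.2 ± 16.0 (SD, n = 2), a 3.14-fold higher level. The log2 difference of 1.88 (SE 0.91) did not pass (limma, adjusted p = 0.322). Its ligand Cd48 had 67.3, 36.7, 85.7 and 61.2 in Steap4f/f, 250.3 in Steap4AKO replicate 2 and 58.8 in replicate 3. Cd48, named here after its values were seen, was therefore high in 1 Steap4AKO library and within the Steap4f/f range in the other.

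The largest single value was that of Il7r in 1 library. Il7r (chromosome 15, 9505788 to 9530176) encodes the alpha chain of the interleukin 7 receptor, which naive and memory T cells need to survive. It stood at 13.4, 20.2, 35.7 and 30.7 in the Steap4f/f libraries, and at 545.6 and 38.6 in replicates 2 and 3 of Steap4AKO. Steap4AKO replicate 2 was 14.1 times the next highest library, whereas for the other 8 genes its value was 0.80 to 1.73 times the highest of the other libraries. Steap4AKO replicate 3 was 1.08 times the highest Steap4f/f library.

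The log2 difference of Il7r was 2.59 (SE 0.96, 95% interval 0.37 to 4.82, limma, adjusted p = 0.224). Without Steap4AKO replicate 2 it was 0.70 (adjusted p = 0.825), and without Steap4AKO replicate 3 it was 4.49 (limma, adjusted p = 0.0285), where 3.03% of all genes tested passed as higher. In that last fit the lone Steap4AKO library is assumed to vary like Steap4f/f libraries. Relative to the sum of Cd3e, Cd3g and Trac, the Il7r value was 0.316, 0.492, 0.466 and 1.56 in Steap4f/f, 4.26 in Steap4AKO replicate 2 and 0.520 in replicate 3. The 8 genes other than Il7r had a total of 157.4, 137.6, 216.4 and 78.1 in the Steap4f/f libraries, against 371.2 and 230.4 in the Steap4AKO libraries.

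The genes around Il7r in its pathway went in both directions. Of 13 genes of the interleukin 7 and common gamma chain list, Il7r included, 7 had higher and 6 lower means, the median log2 difference was 0.22 and none passed the test in limma (1 higher and 1 lower at an unadjusted p under 0.05). Il2rg, the common gamma chain that pairs with Il7r, had 247.3, 315.5, 214.3 and 178.8 in the Steap4f/f libraries, against 398.9 and 307.5 in the Steap4AKO libraries (limma, adjusted p = 0.298). Jak3, the kinase bound to that chain, had 2928.3, 2021.7, 2189.4 and 2207.7 against 1558.2 and 2112.0 (limma, adjusted p = 0.381). Stat5a, a transcription factor that the pathway activates, had a log2 difference of -0.44 (limma, adjusted p = 0.240). Per kb of annotated exon, the Steap4f/f means were 437 for Jak3 and 219 for Stat5a, against 5.36 for Il7r. Which cells the Jak3 and Stat5a values come from was not tested. The cytokine gene Il7, named here after its values were seen, had 55.5, 41.0, 73.3 and 35.2 in the Steap4f/f libraries, against 91.8 and 71.6 in the Steap4AKO libraries, with overlap at Steap4f/f replicate 5.

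**Figure D2:**
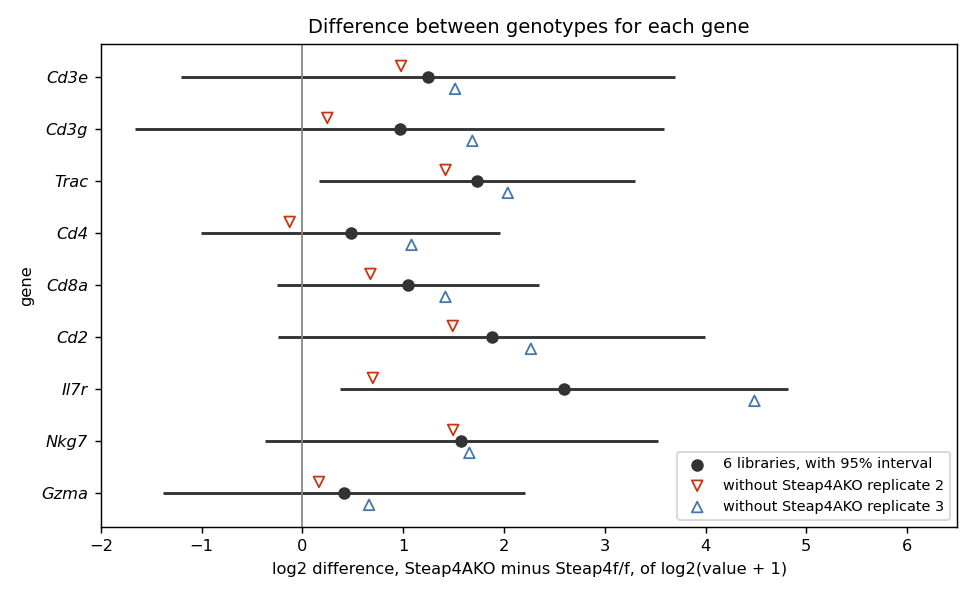
Log2 difference of each gene (Steap4AKO minus Steap4f/f, on log2(value + 1)) with its 95% interval from limma over 6 libraries, and the difference without either Steap4AKO library. Intervals of 2 genes, Trac and Il7r, lie above 0, and for Il7r the difference moves from 0.70 to 4.49 with the library left out.

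The cytotoxic genes had wide ranges within Steap4f/f. Nkg7 (chromosome 7, 43437073 to 43438249) encodes a membrane protein of cytotoxic granules in NK and CD8 T cells. It had 32.9, 12.4, 37.7 and 4.5 in the Steap4f/f libraries, against 54.5 and 48.6 in the Steap4AKO libraries, with no overlap. The mean was 2.36-fold higher, 21.9 ± 16.0 (SD, n = 4) against 51.5 ± 4.14 (SD, n = 2). The log2 difference was 1.58 (SE 0.84, 95% interval -0.38 to 3.53, limma, adjusted p = 0.365), and it was 1.50 without Steap4AKO replicate 2.

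Gzma (chromosome 13, 113093825 to 113100981) encodes granzyme A, a protease released by cytotoxic cells. It had 6.7, 31.7, 36.3 and 12.8 in the Steap4f/f libraries, against 28.9 and 20.2 in the Steap4AKO libraries, so that both Steap4AKO libraries lay inside the Steap4f/f range. The log2 difference was 0.41 (SE 0.77, 95% interval -1.38 to 2.20, limma, adjusted p = 0.803), and it was -0.02 without Steap4f/f replicate 1. Gzma was the 1 gene of the 9 whose highest library was not Steap4AKO replicate 2. The sum of Nkg7 and Gzma relative to the sum of Cd3e, Cd3g and Trac was 0.930, 1.07, 0.966 and 0.875 in the Steap4f/f libraries, against 0.652 and 0.927 in the Steap4AKO libraries.

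Of the cytotoxic and effector list, 7 of 11 genes had a row and 6 were tested. All 6 had a higher mean (median log2 difference 0.34), none passed in limma and none had an unadjusted p under 0.05. Ccl5, a chemokine of activated T and NK cells, had 58.7, 50.4, 52.1 and 27.8 in the Steap4f/f libraries, against 130.4 and 62.3 in the Steap4AKO libraries (limma, adjusted p = 0.319). Perforin (Prf1), which had a mean under the filter and was named after its values were seen, was listed at 6.7, 0.0, 3.6 and 0.0 in the Steap4f/f libraries, against 27.1 and 13.9 in the Steap4AKO libraries. Of 15 NK receptor genes 4 had a row and 3 were tested, among them Il2rb, a chain of the interleukin 2 and 15 receptors, with 58.1, 45.2, 79.4 and 22.6 against 101.0 and 67.1 (limma, adjusted p = 0.453). Cd244a, an NK receptor for CD48, had 56.5 in Steap4AKO replicate 2 and 1.0 to 12.3 in the other libraries and was tested only through that level, and Klrb1c and Ncr1, which define mouse NK cells, were not analysed here.

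Levels of different genes were compared per length, as the value per kb of annotated exon. In Steap4f/f the order of the means was Nkg7 (23.9), Gzma (21.7), Trac (19.6), Cd2 (7.73), Cd8a (7.65), Il7r (5.36), Cd4 (4.31), Cd3g (4.21) and Cd3e (3.16). The ranges over the 4 libraries overlapped between all neighbours in this order, so that no neighbours differed beyond their spread. In Steap4AKO replicate 2 Il7r was the highest per length at 117, followed by Trac at 73.1 and Nkg7 at 59.6. In Steap4AKO replicate 3 Il7r stood at 8.28, below Nkg7 at 53.2 and Trac at 47.3.

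**Figure D3:**
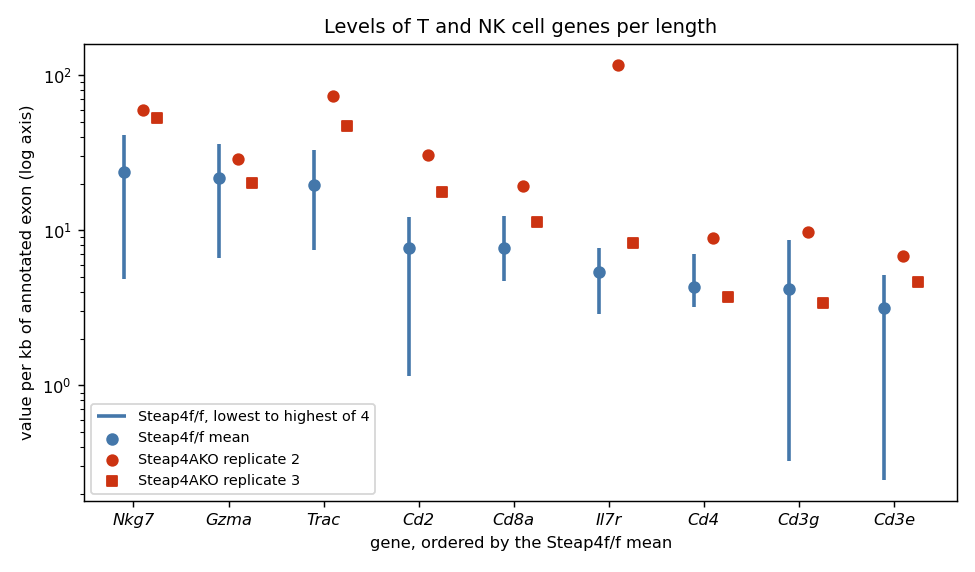
Value per kb of annotated exon (log axis) for 9 genes, ordered by the Steap4f/f mean. Blue bars span the lowest to the highest of 4 Steap4f/f libraries with a dot at the mean, and red symbols are the 2 Steap4AKO libraries. Neighbouring blue bars overlap throughout, and Il7r in Steap4AKO replicate 2 is the highest point at 117.

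Genes that work beside the listed ones were read from lists written for this tissue. Of 24 genes of T cell receptor signalling 15 had a row, and 14 of these had a higher mean in Steap4AKO (median log2 difference 1.10). None passed the test in limma, and 3 were higher at an unadjusted p under 0.05, as were 8.45% of all genes tested. Of these 15, 5 met the minimum mean only through Steap4AKO. Steap4AKO replicate 2 was the highest library for 14 of the 15, and for 27% of all genes tested. Without that library the median log2 difference was 0.29 over the 13 genes still tested. Prkcq, a kinase of T cells, had 35.2, 231.1, 175.0 and 337.8 in the Steap4f/f libraries, against 76.0 and 49.0 in the Steap4AKO libraries. Prkcq was lowest in Steap4f/f replicate 1, and the groups overlapped. The sum of the skeletal muscle markers had the same order over the Steap4f/f libraries (152500, 644900, 493000 and 829200). That sum was 5473 and 20340 in the Steap4AKO libraries. Whether the Prkcq values come from T cells or from other cells was not tested.

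Transcription factors of T cells went both ways. Of 15 listed, 12 had a row, with 7 higher and 5 lower means (median log2 difference 0.59) and none past the threshold in limma. At an unadjusted p under 0.05, 3 were higher and 2 lower, as were 8.45% and 9.66% of all genes tested. Bcl11b, which fixes T cell identity, had 1.7, 0.0, 5.5 and 4.9 in the Steap4f/f libraries, against 61.4 and 25.3 in the Steap4AKO libraries (log2 difference 3.66, SE 1.08, limma, adjusted p = 0.160). Its Steap4f/f mean was 3.04, so that it met the minimum mean only through Steap4AKO, and it was not tested without Steap4AKO replicate 2. Ikzf3, a lymphocyte zinc finger factor, had 14.0, 4.5, 20.0 and 4.7 against 56.7 and 26.7 (adjusted p = 0.251). Zbtb16, which directs innate-like T cells and is also made in other tissues, had 2716.0, 2338.3, 1819.5 and 2248.5 against 1088.1 and 1823.0 (adjusted p = 0.203).

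Genes of lymphocyte homing and naive T cells had the largest share without overlap among the T cell lists given here. Of 10 genes with a row, all 10 had a higher mean (median log2 difference 0.91). None passed in limma, and 4 were higher at an unadjusted p under 0.05, as were 8.45% of all genes tested. Both Steap4AKO libraries were above every Steap4f/f library for 6, as for 14.1% of all genes tested. Klf2 and Il6ra, the latter named after its values were seen, were among these 6, with Steap4f/f means of 905 and 675. Of the 10, 1 gene, Ccr7, named here after its values were seen, met the minimum mean only through Steap4AKO. Klf2, a factor that keeps T cells quiescent and is also made by endothelium, had 1043.4, 903.9, 846.7 and 826.0 in the Steap4f/f libraries, against 1320.7 and 1374.9 in the Steap4AKO libraries (log2 difference 0.58, SE 0.15, limma, adjusted p = 0.116). Itgb7, an integrin chain of gut-homing and tissue lymphocytes, had 106.4, 166.7, 126.4 and 122.2 against 297.8 and 211.5 (log2 difference 0.96, limma, adjusted p = 0.156).

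Regulatory T cells and type 2 innate lymphoid cells (ILC2) were covered in part, since 8 of 14 listed genes had a row and Foxp3 was not analysed here. Of the 8, 5 had higher and 3 lower means, and none passed in limma (1 at an unadjusted p under 0.05). Gata3, a factor of T helper 2 cells and ILC2 that epithelia also use, had 2.2, 7.9, 3.5 and 23.9 in Steap4f/f, 366.2 in Steap4AKO replicate 2 and 8.7 in replicate 3 (limma, adjusted p = 0.324), and it met the minimum mean only through Steap4AKO. Gata3 was thus high in the library where Il7r was high and within the Steap4f/f range in the other.

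Of 11 genes for ligands of CD2, CD4 and CD8 and for costimulation, 8 had higher and 3 lower means and none passed in limma (1 at an unadjusted p under 0.05). H2-Aa, an MHC class II chain, had 2801.4, 3316.9, 2903.5 and 1727.4 in the Steap4f/f libraries, against 6693.4 and 3145.3 in the Steap4AKO libraries (limma, adjusted p = 0.268). Both Steap4AKO libraries were below every Steap4f/f library for 3 of the 11 genes, as for 14.4% of all genes tested. They were above for 1, as for 14.1% of all genes tested. Those below were the class I genes H2-D1 and H2-K1 and B2m, the last named here after its values were seen. H2-D1 had 32631.6 to 47636.7 in the Steap4f/f libraries, against 24234.1 and 31049.4 in the Steap4AKO libraries (limma, adjusted p = 0.285).

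Markers of some other cell types moved with the T and NK cell genes in Steap4AKO replicate 2, and their part in the result was not tested. B cell genes had a row for 13 of 17, and 11 of the 12 tested had a higher mean. Steap4AKO replicate 2 was the highest library for 11, and for 27% of all genes tested. Of the 12, 6 met the minimum mean only through Steap4AKO, and the median log2 difference was 1.52, against 0.59 over the 6 genes still tested without Steap4AKO replicate 2. The list summed to 3461 to 13680 in the Steap4f/f libraries, against 18990 and 16480 in the Steap4AKO libraries. The sum was mostly Ighm other than in Steap4f/f replicate 1, where Ebf1 was higher at 1794.9. Ighm had 1635.0, 6959.7, 10794.5 and 5846.5 in the Steap4f/f libraries, against 16549.9 and 13104.5 in the Steap4AKO libraries. Of the other B cell markers, Ms4a1, Fcrla, Pou2af1 and Spib were listed at 0 in at least 1 library. The median deviation of the B cell list from the Steap4f/f mean was 2.78 on the log2 scale in Steap4AKO replicate 2 and 0.64 in replicate 3.

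Macrophage markers (12 of 12 with a row) summed to 11470 to 13170 in Steap4f/f, to 32880 in Steap4AKO replicate 2 and to 10570 in replicate 3, with none at 0. Dendritic cell markers (11 of 11) summed to 3667 to 4750 in the Steap4f/f libraries, against 6548 and 4004 in the Steap4AKO libraries. Mesothelial and visceral fat markers (11 of 12) summed to 96.7 to 588.2 in Steap4f/f, to 3911 in Steap4AKO replicate 2 and to 68.0 in replicate 3. Of these, Wt1, Upk3b, Upk1b, Msln, Bnc1, Krt8, Krt18 and Tcf21 were listed at 0 in at least 1 library. Adipocyte markers (12 of 12) summed to 522400 to 690100 in the Steap4f/f libraries, against 325500 and 503400 in the Steap4AKO libraries, with none at 0. Of these, 11 had lower means and 1, Lep, had a higher mean. Lep had 8106.1 to 22141.4 in the Steap4f/f libraries, against 55201.6 and 43433.5 in the Steap4AKO libraries (limma, adjusted p = 0.0988).

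Lymph node stroma was covered by 7 of 14 listed genes, of which 3 had higher and 4 lower means. Ccl21a, a chemokine that draws T cells into lymph nodes, had 12.2, 23.7, 45.7 and 42.5 in the Steap4f/f libraries, against 1020.9 and 39.4 in the Steap4AKO libraries (limma, adjusted p = 0.255). Its log2 difference was 2.83, and 0.50 without Steap4AKO replicate 2. The near-identical copies of Ccl21a make its values uncertain. Cxcl13, the chemokine of B cell follicles, went the other way, with 401.7, 153.5, 86.1 and 20.2 against 18.7 and 17.0 (limma, adjusted p = 0.254). Madcam1 and Glycam1, which mark the venules through which lymphocytes enter nodes, were not analysed here. Ccl21a and Il7r therefore had their high value in the same library, Steap4AKO replicate 2, and Cxcl13 did not.

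**Figure D4:**
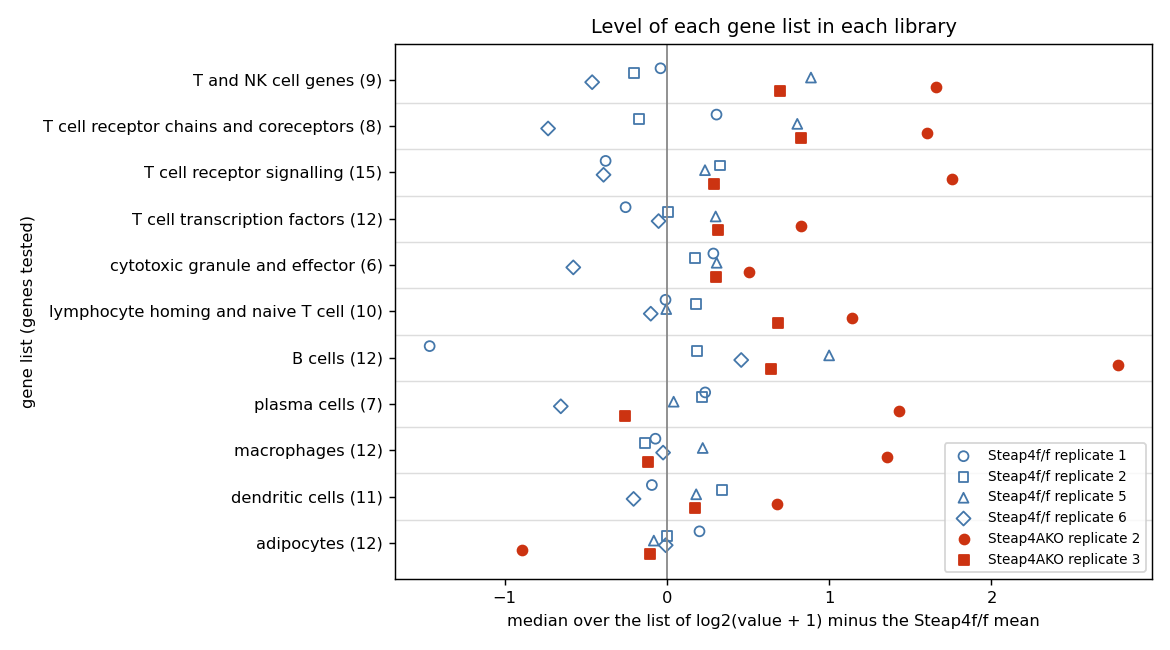
Median over each gene list of the difference between log2(value + 1) in a library and the Steap4f/f mean, for 4 Steap4f/f libraries (open blue) and 2 Steap4AKO libraries (filled red), with the number of genes tested in brackets. Steap4AKO replicate 2 is at 1.66 for the T and NK cell genes, 2.78 for B cells and 1.36 for macrophages, and Steap4AKO replicate 3 is at 0.70, 0.64 and -0.12.

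In Steap4AKO replicate 3 the T and NK cell genes were less far from the controls. Their median deviation from the Steap4f/f mean was 0.70 on the log2 scale, inside the range of -0.46 to 0.89 of the Steap4f/f libraries. The genes above every Steap4f/f library there were Trac, Cd2, Il7r and Nkg7. These are the 4 of 9 for which both Steap4AKO libraries lay above, as for 14.1% of all genes tested. The share of all genes for replicate 3 alone was not counted. Macrophage markers in that library deviated by -0.12, against -0.13 to 0.22 in Steap4f/f. The Steap4f/f libraries also differed among themselves, since replicate 6 was the lowest library for 5 of the 9 genes and replicate 5 had the highest median of the 4.

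Among the 10 genes outside the T, NK and B cell lists whose pattern was most like the mean scaled pattern of the 9 genes were Tgfb1, Irf8, Ghdc, Khdrbs1, Exog, Stard8, Slc7a7 and Gcc1. The likeness of the 10, a correlation coefficient over the same 6 libraries, ran from 0.977 to 0.989, and 60 of 12296 genes considered reached at least 0.95, so that the order among them carries little. Irf8, a factor of dendritic cells, macrophages and B cells, had 228.1, 240.8, 365.6 and 174.2 in the Steap4f/f libraries, against 890.9 and 369.2 in the Steap4AKO libraries (limma, adjusted p = 0.183). Its log2 difference was 1.23, and 0.60 without Steap4AKO replicate 2. Tgfb1, a cytokine that acts on T cells and matrix, had 894.9, 877.2, 1037.3 and 693.2 against 1784.7 and 1151.1.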

How the data were processed

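The values were deposited by the authors as a signal, that is, gene counts divided by DESeq2 factors as the table's name states. DESeq2 1.12.4, RSEM 1.3.3, STAR 2.7.0e and R 4.2.0 stand in the submitters' processing notes without roles, with the build GRCm38/mm10. The annotation and strandedness are not given in the sources used here. Every row reached at least 11.8 in some library, so a gene low in Steap4f/f could be kept through 1 high Steap4AKO library. Between 51.4 and 60.1% of low values came within 0.1 of whole reads, too few for a count test, and depth is an estimate. Symbols (15125 genes), positions and exon lengths came from GENCODE M21.

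Differences were tested, two-sided, on log2(value + 1) with limma 3.58.1 (R 4.3.3, intensity trend) over 6 libraries. The 15006 genes tested had a mean of at least 10, with Benjamini-Hochberg adjustment over all of them. The log2(value + 1) scale understates changes of low genes. The fit was also run on simulated data, in which only genes with a mean log level above that of a value of 50 were changed. The 9 genes had Steap4f/f means of 12.9 to 27.8, a range which that run does not cover. Folds are ratios of group means. The genes and lists were chosen with earlier results of these data known. Named were the listed genes, in each other list those past the threshold or otherwise the 2 with the smallest p in each direction, for other cell types also the 3 highest, and the 10 most like genes with a mean of at least 50. Not all of these are described. Alternatives were other pseudocounts, filters, scalings, weights, a robust prior, a threshold of 0.1 and each library left out. Figures used matplotlib.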

Additional observations from a re-analysis of the deposited data

Results flagged for a closer look

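Cd4 had a value of 28.5 in Steap4f/f replicate 1, far above the other 3 Steap4f/f libraries at 13.0 to 14.2. The gap was 0.92 of the range of the group, above Dixon's 95% critical value for 4 samples. Chance marks about 1 in 20 groups this way, and 44 genes were examined.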

How the results depend on the processing

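The count of 71 genes past the threshold was 1 with a pseudocount of 0.5, with a minimum mean of 50 or with a robust variance prior, 123 with a pseudocount of 5, 119 with array weights and 410 at a threshold of 0.1. It ran from 1 (without Steap4f/f replicate 2, 5 or 6, or without Steap4AKO replicate 2) over 238 (without Steap4f/f replicate 1) to 821 (without Steap4AKO replicate 3). The count of T and NK cell genes past it was 0 under each setting other than without Steap4AKO replicate 3, where it was 1, Il7r, so that leaving out libraries gave 0 to 1. The median log2 difference of the 9 genes ran from 0.70 without Steap4AKO replicate 2 to 1.66 without replicate 3. It was 0.99 under quantile normalization and 1.42 with each library scaled to the same total, which moved the median of all genes by 0.18. Of 118 values for single genes, 115 kept direction and side of the threshold. With libraries left out, Cd4 ran from -0.13 (reversed, without Steap4AKO replicate 2) to 1.08, and Gzma from -0.023 (reversed, without Steap4f/f replicate 1) to 0.74, and Il7r gained a call without Steap4AKO replicate 3. With a minimum mean of 50, Il7r alone of the 9 remained. No paired analysis was possible because the groups share 1 replicate number. Values of about 1 read, and 2 Steap4AKO libraries, limit what differences can be seen.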
